A study of Homo sapiens with 12 samples.

Results

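Receptor tyrosine kinases are the membrane proteins through which cells read growth factors, and several of them are studied as drug targets in triple-negative breast cancer (TNBC), which lacks the hormone receptors and HER2 amplification. The 10 receptors described here are EGFR, ERBB2, MET, AXL, PDGFRA, PDGFRB, FGFR1, IGF1R, EPHA2 and DDR2, chosen by symbol from 24559 gene symbols of the deposited table. All 10 were found in the table and all 10 were among the 16538 genes that passed the filter on low counts. Polysome-associated RNA, that is mRNA carried by several ribosomes and collected from a sucrose gradient, was sequenced from 3 established human TNBC lines in 12 libraries that form 6 groups of 2. MDA-MB-231 and SUM159 cells carried a TRMT112 shRNA (KD) or its control (EV), and BT549 cells carried a TRMT112 expression plasmid (OE) or its empty vector (EV). TRMT112 is a small protein that activates several RNA and protein methyltransferases. According to the study's methods, the KD control was a non-silencing shRNA in the same GIPZ vector, with puromycin selection, and the OE control was the empty pReceiver-M02 vector, with G418 selection. The 3 lines also differed in medium: 5% serum for MDA-MB-231, 5% serum with 5 µg/mL insulin and 1 µg/mL hydrocortisone for SUM159, and 10% serum for BT549. Line, medium, vector and selection therefore cannot be told apart when one line is set against another. The labels do not say that the 2 libraries of a group came from separate cultures, so each p-value measures only the spread between these libraries, which may be technical.

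Many receptor tyrosine kinases pair with a second receptor when their ligand binds, and the kinase domains of the pair then phosphorylate each other on tyrosines. These phosphotyrosines recruit adaptors that switch on the RAS-ERK, PI3K-AKT and STAT3 routes, while phosphatases, the ubiquitin ligase CBL and the Sprouty proteins shut the signal down. EGFR and AXL are known for high levels in basal-like and mesenchymal-like breast cancer cells, and PDGF receptors and DDR2 for their place in mesenchymal cells. An mRNA count from polysomes reads neither the receptor protein nor its phosphorylation. No libraries of total RNA were analysed here, so a change in the amount of an mRNA and a change in its ribosome loading cannot be told apart, and fewer cells of a kind cannot be told apart from less RNA per cell.

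The libraries held between 22954226 and 27434677 expected counts, and levels are given as normalized counts, which are counts scaled by TMM factors to a common library size. Genes were called at an adjusted p under 0.05 in edgeR's quasi-likelihood test, with Benjamini-Hochberg adjustment over all 16538 genes, and every adjusted p below comes from that test unless another is named. TRMT112, the targeted gene, followed the labels: it was 2.35-fold lower in MDA-MB-231 KD, 1.70-fold lower in SUM159 KD and 1.40-fold higher in BT549 OE, with no overlap between libraries. Line markers followed the labels too: CDKN2A was at 0 in all MDA-MB-231 libraries, and RB1 was at most 60.9 normalized counts in BT549 EV and at most 169.8 in BT549 OE, against at least 506.1 in the other lines. The progesterone receptor gene PGR was at 0 in every group but BT549 EV, where it reached 9.97 normalized counts. Of 5 mesenchymal-like genes, VIM was at 16820 normalized counts or more in every library, while CDH2 was at 1.83 to 10.6 in MDA-MB-231 and at 1070.0 or more in the other lines. The summed counts of 4 leukocyte genes were at most 24.1 normalized counts per library outside BT549 OE. Those of 7 epithelial genes were 17880 to 18490 in MDA-MB-231 EV and 23020 to 23500 in KD. In SUM159 the epithelial sum was 40150 to 41250 in EV and 37070 to 38790 in KD, with KRT14 at 166.5 to 166.9 in EV and at 0 in KD. Most of this sum was KRT7, at 30340 to 31000 in EV and 24380 to 25400 in KD. KRT8 went the other way, from 4910 to 4944 in EV to 8311 to 8738 in KD. The adhesion genes EPCAM and CDH1 were at most 4.02 and 0.865 normalized counts in SUM159. Further marker values are given below for the lines named there. The deposited table holds no transcript that is at 0 in all 4 BT549 libraries, so a transcript seen in MDA-MB-231 or SUM159 alone was not analysed here. Whether the counting used strand is not stated, so reads of genes that overlap a receptor (among them EGFR-AS1, LETM2 beside FGFR1, EPHA2-AS1, and PGAP3 and MIEN1 beside ERBB2) cannot be told apart from the receptor's own. The same holds for AXL, PDGFRA, IGF1R and DDR2, which also overlap other annotated genes.

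Measured per kilobase of transcript, which allows levels to be compared between genes, AXL led the 10 receptors in 5 of the 6 groups. In MDA-MB-231 EV it stood at 15960 ± 235.0 normalized counts per kilobase (SD, n = 2) and made up 75.3% of the summed level of the 10 receptors, followed by EPHA2 at 3251 ± 171.4 and FGFR1 at 909.7 ± 5.48. EGFR had rank 5 there with 344.8 ± 17.95 normalized counts per kilobase, or rank 4 with the length of its longest transcript. In SUM159 EV the AXL level was 2762 ± 58.8 normalized counts per kilobase, or 50.4% of the sum, and in BT549 EV 5046 ± 59.45, or 46.5% of the sum. BT549 OE was the exception: FGFR1 led with 7396 ± 130.0 normalized counts per kilobase, 63.8% of the sum, and AXL held 17.0%. The level summed over the 10 receptors was 5478 ± 57.6 normalized counts per kilobase in SUM159 EV and 8983 ± 81.6 in KD, and stood at 21190 ± 432.2 and 24220 ± 114.8 in MDA-MB-231 EV and KD. In BT549 it was 10860 ± 98.5 in EV and 11590 ± 174.3 in OE, but with each gene divided by the length of its longest transcript the order turned, to 8344 ± 42.9 in EV and 8180 ± 171.9 in OE. These sums carry no test.

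**Figure D1:**
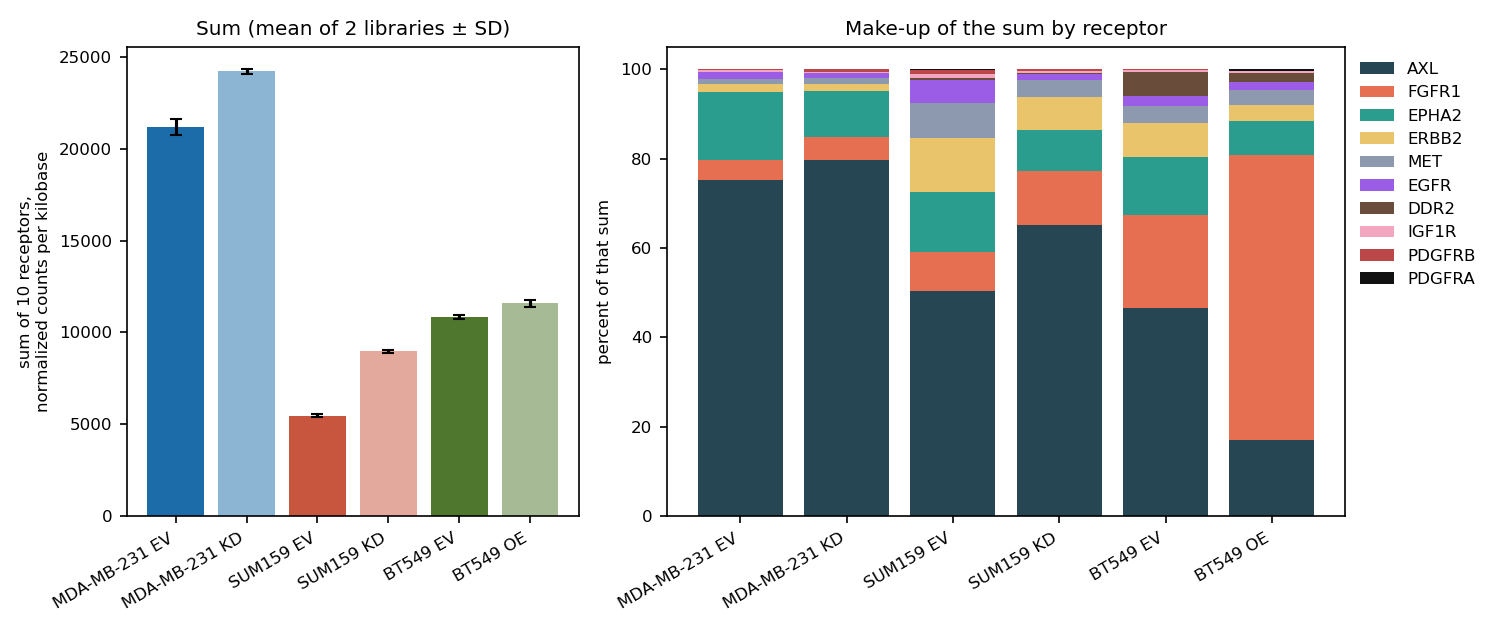
Left, the level summed over the 10 receptors in normalized counts per kilobase (bars, mean of 2 libraries; error bars, SD). Right, the percent of that sum held by each receptor in each group: AXL (dark blue) holds 46.5% or more in every group except BT549 OE, where FGFR1 (orange) holds 63.8%.

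EGFR, the receptor of EGF, TGF-alpha and amphiregulin, lies at chr7:55019017-55211628 on the plus strand (GRCh38, ENSG00000146648). MDA-MB-231 had 3353 and 3182 normalized counts in EV against 2198 and 2243 in KD. In SUM159 they were 2645 and 2803 in EV and 1103 and 1130 in KD. Every KD library was below every EV library of its line, and SUM159 KD was the lowest of the 6 groups. EGFR fell by 0.56 on the log2 scale in MDA-MB-231 KD (SE 0.04, adjusted p = 5.48e-10) and by 1.29 in SUM159 KD (SE 0.05, adjusted p = 1.17e-16), a 1.47-fold and a 2.44-fold decrease. In BT549 the normalized counts were 1999 and 2041 in EV and 1777 and 1879 in OE, and EGFR fell by 0.14 on the log2 scale (SE 0.05, adjusted p = 0.00988). That last call was lost without BT549 OE replicate 1 (-0.11, adjusted p = 0.105) and with the main EGFR transcript tested singly (-0.02, adjusted p = 0.913).

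ERBB2 encodes HER2, which binds no ligand of its own and signals as the partner of EGFR, ERBB3 and ERBB4. It lies at chr17:39687914-39730426 on the plus strand (ENSG00000141736). Its normalized counts were 1448 and 1502 in MDA-MB-231 EV, 1385 and 1440 in MDA-MB-231 KD, 2720 and 2666 in SUM159 EV, and 2662 and 2594 in SUM159 KD. The KD and EV libraries lay close together in both lines, and neither difference passed the test: -0.06 on the log2 scale in MDA-MB-231 (SE 0.05, adjusted p = 0.314) and -0.04 in SUM159 (SE 0.04, adjusted p = 0.474). The MDA-MB-231 difference depended on the scaling, with an adjusted p of 0.0113 when only library size was used. In BT549 the normalized counts were 3299 and 3421 in EV against 1690 and 1725 in OE. There ERBB2 fell by 0.98 on the log2 scale (SE 0.04, adjusted p = 1.04e-15), a 1.97-fold decrease, and the EV libraries of BT549 were the highest of the 12. Per kilobase it had rank 4 among the 10 receptors in BT549 EV, rank 3 in SUM159 EV, and rank 4 in MDA-MB-231 EV, or 5 there with the longest transcript's length.

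MET is the receptor of hepatocyte growth factor and lies at chr7:116672196-116798377 on the plus strand (ENSG00000105976). MDA-MB-231 had 1525 and 1475 normalized counts in EV and 2144 and 2138 in KD, so that the KD libraries stood above the EV libraries. In SUM159 the order was the opposite, with 2800 and 2813 in EV and 2130 and 2336 in KD. MET rose by 0.51 on the log2 scale in MDA-MB-231 KD (SE 0.05, adjusted p = 1.07e-08) and fell by 0.33 in SUM159 KD (SE 0.04, adjusted p = 9.46e-07), a call lost with the main transcript tested singly (-0.27, adjusted p = 0.0978). The libraries of BT549 overlapped, at 2734 and 2678 in EV and 2698 and 2553 in OE, and the difference of -0.04 did not pass the test (SE 0.05, adjusted p = 0.399). MET had the narrowest range of the 10 receptors over the 6 groups, 1.87-fold between the highest group (SUM159 EV) and the lowest (MDA-MB-231 EV).

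AXL binds GAS6 and, with TYRO3 and MERTK, forms the TAM family. It lies at chr19:41219223-41261766 on the plus strand (ENSG00000167601). MDA-MB-231 had 59020 and 58232 normalized counts in EV and 69733 and 70883 in KD. In SUM159 they were 10307 and 10511 in EV and 21508 and 21540 in KD. In BT549 they were 18584 and 18268 in EV and 7235 and 7033 in OE. The libraries of EV and of KD or OE did not overlap in any line: KD was above EV in both KD lines, and OE was below EV in BT549. AXL rose by 0.26 on the log2 scale in MDA-MB-231 KD (SE 0.02, adjusted p = 4.81e-09) and by 1.05 in SUM159 KD (SE 0.02, adjusted p = 3.35e-20), and fell by 1.37 in BT549 OE (SE 0.03, adjusted p = 8.46e-23). These are a 1.20-fold and a 2.07-fold increase and a 2.58-fold decrease. The 6 groups spanned 9.86-fold, and no neighbours in the order of groups overlapped.

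Most AXL reads came from a pair of transcripts that differ in a short cassette exon and in the length of the last exon. AXL-201, the reference transcript, holds exon 10 of 20, which spans chr19:41239694-41239720 on the plus strand (GRCh38, GENCODE 44), and encodes 894 residues. AXL-202 skips these 27 bases, which encode 9 residues, and encodes 885 residues. The sequences below show the coding bases around the exon, since the line-to-line difference described next lies between these transcripts. Capitals mark the exon that AXL-202 lacks, with 18 flanking bases on each side.
AXL-201: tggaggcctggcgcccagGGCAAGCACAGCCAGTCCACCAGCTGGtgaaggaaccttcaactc
AXL-202: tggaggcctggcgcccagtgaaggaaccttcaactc
AXL-202 took 46.4% and 45.4% of the AXL counts in MDA-MB-231 EV, 36.6% and 35.6% in SUM159 EV, and 57.7% and 58.7% in BT549 EV. The 3 lines did not overlap in this share, and BT549 was highest. Within lines the share was at most 44.9% in MDA-MB-231 KD, 41.9% and 40.3% in SUM159 KD, and 54.4% and 53.1% in BT549 OE. It was thus higher in SUM159 KD than in EV and lower in BT549 OE than in EV. AXL-203, which encodes 626 residues, took 1.80% to 2.16% in BT549 EV and 4.65% to 6.28% in BT549 OE, against 7.63% to 11.2% in the other 4 groups. Most bases of these transcripts are shared, so the shares are estimates made by the authors' counting tool, and the shorter last exon of AXL-202 enters them as well as the cassette exon.

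**Figure D2:**
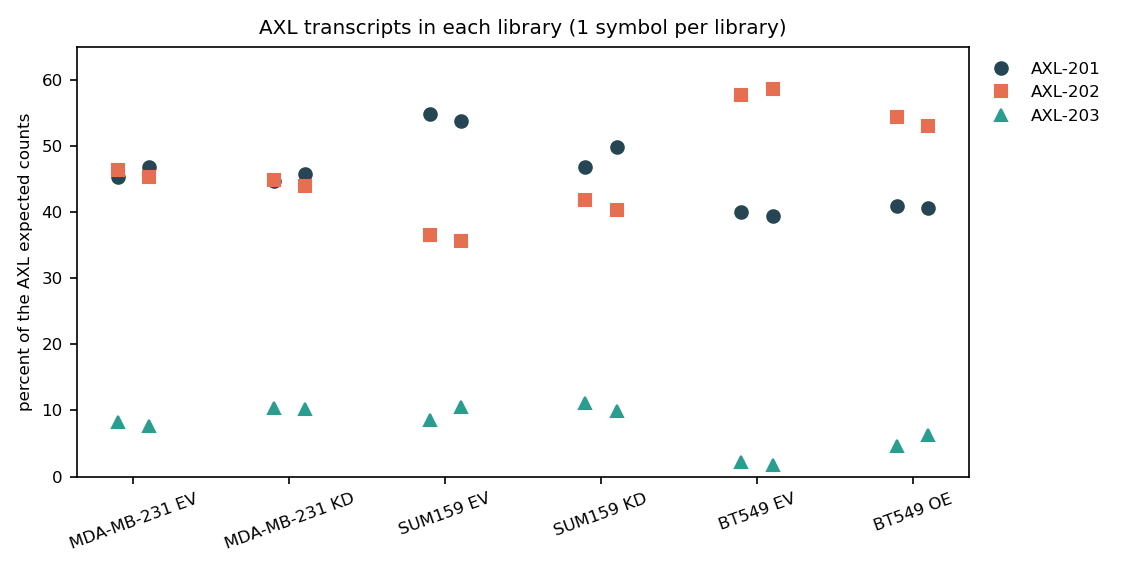
Share of the AXL expected counts given to AXL-201, AXL-202 and AXL-203 (y axis, percent) in each of the 12 libraries (x axis, groups; 1 symbol per library). AXL-202 lies above AXL-201 in BT549 and below it in SUM159.

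MET and IGF1R also have annotated forms that differ by a few coding bases and are both carried by polysomes in every library, which is why they are shown. In MET-201 an upstream splice acceptor adds 54 bases (chr7:116759337-116759390, plus strand, capitals), which encode 18 residues, to the start of exon 10. MET-202, the reference transcript, lacks them. IGF1R-217, the reference transcript, holds 3 bases (chr15:98929558-98929560, plus strand, capitals) that IGF1R-216 lacks, a difference of 1 residue.
MET-201: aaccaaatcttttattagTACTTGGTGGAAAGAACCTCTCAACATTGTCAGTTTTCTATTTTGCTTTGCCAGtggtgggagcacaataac
MET-202: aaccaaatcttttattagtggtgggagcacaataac
IGF1R-217: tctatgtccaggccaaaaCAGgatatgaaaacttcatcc
IGF1R-216: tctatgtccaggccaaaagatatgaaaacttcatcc
MET-202 held 71.8% to 91.4% of the MET counts over the 12 libraries, and MET-201 held 6.21% to 15.1%. IGF1R-217 held 47.8% to 72.3% of the IGF1R counts and IGF1R-216 held up to 52.2%. Replicates of a group were far apart in the IGF1R-217 share (72.3% and 56.7% in SUM159 KD), and no order of groups is read from these shares. EGFR was carried by its reference transcript EGFR-201 (62.9% to 74.7% of counts) and by EGFR-205 (22.9% to 34.6%).

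PDGFRA, at chr4:54229280-54298245 on the plus strand (ENSG00000134853), binds all PDGF dimers but PDGF-DD, and marks mesenchymal cells. It was at 0 or 1 count in each of the 4 MDA-MB-231 libraries, so no fold is given there. In SUM159 its normalized counts were 58.5 and 54.3 in EV and 4.03 and 4.32 in KD. In BT549 they were 6.57 and 7.75 in EV and 239.2 and 268.3 in OE. The groups did not overlap in either line. Its mean count over the 12 libraries was 49.1, so these values rest on few reads outside BT549 OE. PDGFRA fell by 3.71 on the log2 scale in SUM159 KD (SE 0.41, adjusted p = 3.51e-08), a 13.1-fold decrease. In BT549 OE it rose by 5.12 (SE 0.34, adjusted p = 2.31e-12), a 34.9-fold increase and the largest change among the 10 receptors in the 3 within-line comparisons. Per kilobase it still was a minor receptor in BT549 OE, with 44.6 ± 4.87 normalized counts per kilobase and 0.385% of the summed level. In BT549 OE its counts came almost wholly from the reference transcript PDGFRA-201 (98.2% and 98.4%).

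PDGFRB, at chr5:150113839-150155872 on the minus strand (ENSG00000113721), is the receptor of PDGF-BB and PDGF-DD. Its normalized counts were 222.0 and 226.5 in MDA-MB-231 EV and 561.2 and 607.9 in KD. In SUM159 they were 232.1 and 249.3 in EV and 99.8 and 109.0 in KD. The EV groups of these lines were close, 224.2 ± 3.14 and 240.7 ± 12.2 (SD, n = 2), and their difference did not pass the test (adjusted p = 0.441), while KD lay above EV in MDA-MB-231 and below it in SUM159. PDGFRB rose by 1.38 on the log2 scale in MDA-MB-231 KD (SE 0.11, adjusted p = 6.97e-10) and fell by 1.20 in SUM159 KD (SE 0.13, adjusted p = 3.22e-08). In BT549 it was barely detected, with 5.47 and 8.86 normalized counts in EV and 11.1 and 13.6 in OE, and the difference of 0.77 did not pass the test (SE 0.45, adjusted p = 0.148). Its main transcript tested singly did pass there, with a log2 value of 5.98 (adjusted p = 0.000526), on these few counts. So the PDGF receptor with more counts was PDGFRB in MDA-MB-231 and SUM159 and PDGFRA in BT549 OE, where PDGFRA had 44.6 and PDGFRB 3.34 normalized counts per kilobase.

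Genes used as markers of other cell types changed along with PDGFRA in BT549. Some of them were present in the EV groups too, with COL1A1 at 2016 to 2023 normalized counts in BT549 EV and 7420 to 7476 in SUM159 EV. The paper reports collagen formation among the processes raised in BT549 OE. Of 6 fibroblast genes, 4 were detected in BT549 EV with a summed level of 6968 to 7048 normalized counts, and all 6 in BT549 OE with 88510 to 90980. The defining genes DCN and LUM were at 0 in both EV libraries and at 179.4 to 192.4 and 74.7 to 79.7 in OE. The summed level of 7 epithelial genes, mostly the keratin KRT7, was 1571 to 1594 normalized counts in EV and 122.3 to 139.5 in OE, where 2 of the 7 were at 0. The leukocyte sum was 19.7 to 19.9 in EV and 90.8 to 93.95 in OE, nearly all of it CD14, and the mesenchymal-like sum was 71120 to 71360 in EV and 32320 to 33380 in OE. CDKN2A, high in this line, was at 32130 to 32400 in EV and 25840 to 27170 in OE. In SUM159, where PDGFRA and PDGFRB fell, the fibroblast sum was 7812 to 7858 in EV and 9816 to 9996 in KD, nearly all of it COL1A1, with DCN at 67.6 to 77.4 in EV and 20.8 to 34.3 in KD. The part of other cell types in the receptor changes of either line was not tested.

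**Figure D3:**
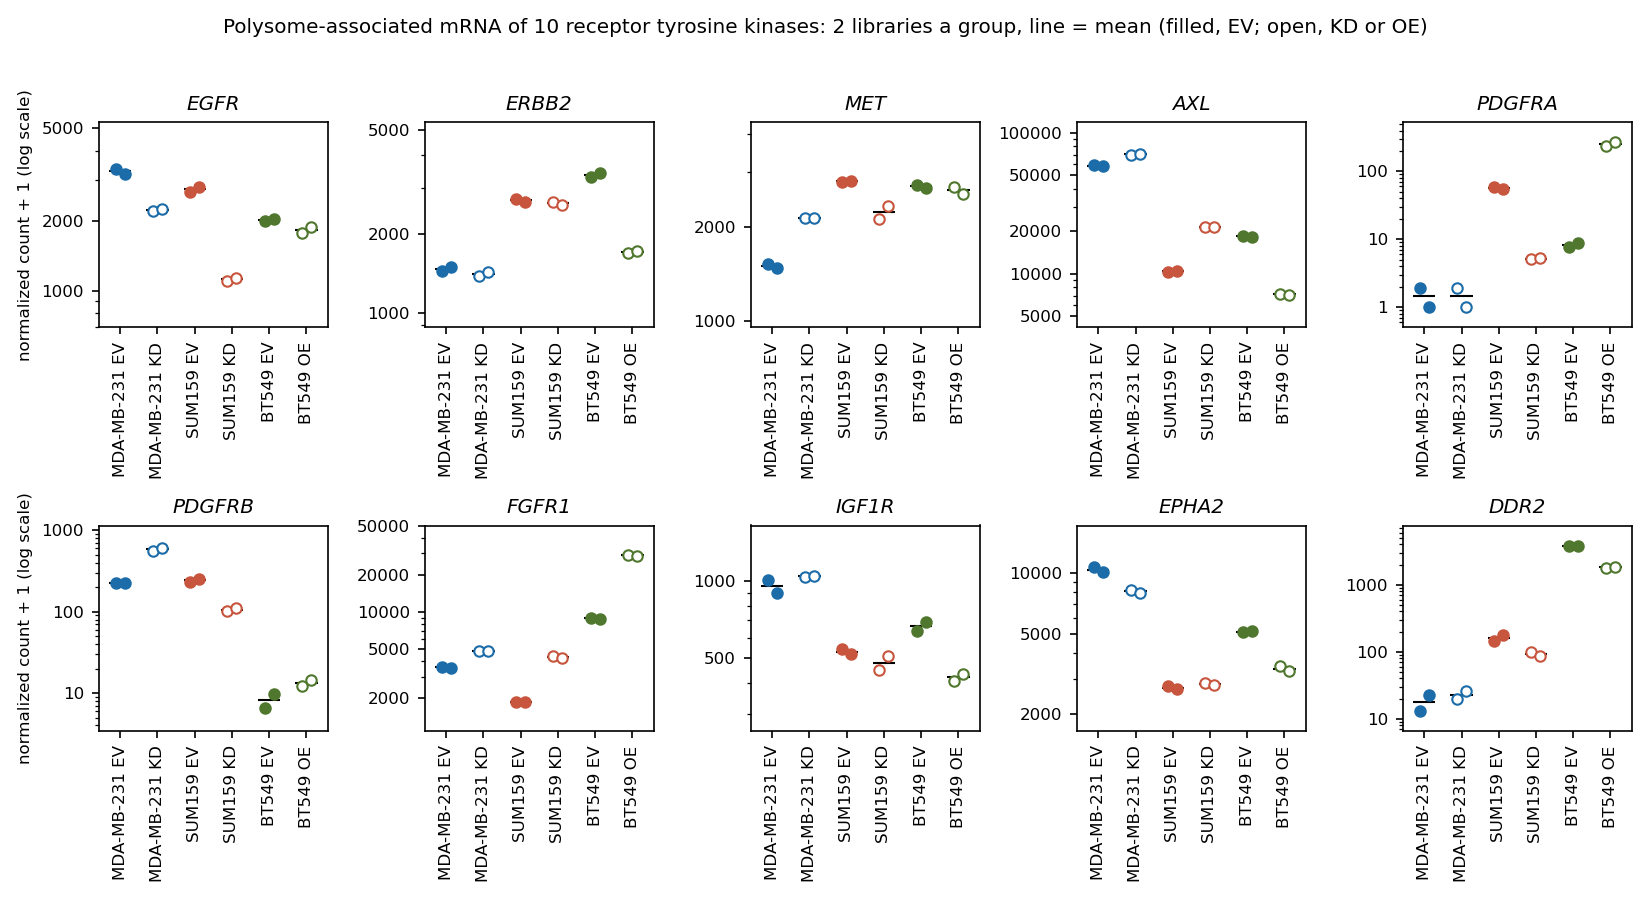
Normalized counts plus 1 of the 10 receptors in each library (y axes, log scale, each panel with its own range; x axes, the 6 groups). Each point is a library (filled, EV; open, KD or OE) and the line is the mean of 2 libraries. PDGFRA in BT549 stands at 6.57 and 7.75 in EV and at 239.2 and 268.3 in OE, and FGFR1 is higher in KD or OE than in EV in all 3 lines.

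FGFR1 binds fibroblast growth factors together with heparan sulfate and lies at chr8:38400215-38468834 on the minus strand (ENSG00000077782). For FGFR1, normalized counts were 3579 and 3534 in MDA-MB-231 EV and 4836 and 4870 in KD, and 1872 and 1875 in SUM159 EV and 4365 and 4207 in KD. In BT549 they were 8985 and 8787 in EV and 29385 and 28385 in OE. The KD or OE libraries were above the EV libraries in each line. FGFR1 rose by 0.45 on the log2 scale in MDA-MB-231 KD (SE 0.03, adjusted p = 1.57e-10), by 1.19 in SUM159 KD (SE 0.04, adjusted p = 1.64e-18) and by 1.70 in BT549 OE (SE 0.03, adjusted p = 1.55e-23). These are 1.36-fold, 2.29-fold and 3.25-fold increases. FGFR1 was the member called higher in all 3 lines and EGFR the member called lower in all 3, though its BT549 call was lost in the alternatives given above. It was also the member spread over the most transcripts: 6 of 57 listed transcripts were needed to reach 90% of its counts, and its main transcript tested singly did not pass in MDA-MB-231 KD (0.37 on the log2 scale, adjusted p = 0.178).

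IGF1R, the receptor of the insulin-like growth factors, lies at chr15:98648539-98964530 on the plus strand (ENSG00000140443). Its normalized counts were 1010 and 893.1 in MDA-MB-231 EV, 1038 and 1047 in MDA-MB-231 KD, 537.9 and 517.7 in SUM159 EV, and 445.6 and 507.7 in SUM159 KD. The differences of 0.13 and -0.14 on the log2 scale did not pass the test (adjusted p = 0.155 in both lines). In BT549 the normalized counts were 636.2 and 692.1 in EV and 406.4 and 430.1 in OE. IGF1R fell by 0.67 there (SE 0.09, adjusted p = 3.41e-07), a call lost with the main transcript tested singly (-0.50, adjusted p = 0.0886). Its level per kilobase was 44.3 to 86.8 normalized counts over the 6 groups, under 1% of the summed level of the 10 receptors in each.

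EPHA2 binds ephrin-A ligands on neighbouring cells and lies at chr1:16124337-16156069 on the minus strand (ENSG00000142627). For EPHA2, normalized counts were 10657 and 10076 in MDA-MB-231 EV and 8197 and 7987 in KD, 2755 and 2670 in SUM159 EV and 2853 and 2800 in KD, and 5085 and 5151 in BT549 EV and 3462 and 3268 in OE. KD was below EV in MDA-MB-231 and OE below EV in BT549, while KD lay slightly above EV in SUM159. EPHA2 fell by 0.36 on the log2 scale in MDA-MB-231 KD (SE 0.03, adjusted p = 1.31e-08) and by 0.60 in BT549 OE (SE 0.04, adjusted p = 9.49e-13). The difference of 0.06 in SUM159 did not pass the test (SE 0.04, adjusted p = 0.216), but did with RLE size factors (0.11, adjusted p = 0.0161) and with DESeq2 (0.11, adjusted p = 0.0148).

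DDR2 is activated by fibrillar collagen and lies at chr1:162631373-162787405 on the plus strand (ENSG00000162733). Its normalized counts were 12.2 and 21.9 in MDA-MB-231 EV, 18.7 and 25.05 in MDA-MB-231 KD, 144.3 and 175.9 in SUM159 EV, and 96.8 and 85.6 in SUM159 KD. In BT549 they were 3835 and 3788 in EV and 1785 and 1847 in OE. The 4 BT549 libraries lay above the other 8, and the order of the other groups was SUM159 EV, SUM159 KD and then the overlapping MDA-MB-231 groups. It fell by 0.82 on the log2 scale in SUM159 KD (SE 0.14, adjusted p = 2.26e-05) and by 1.07 in BT549 OE (SE 0.06, adjusted p = 5.53e-14). With the main transcript tested singly the SUM159 call was lost (-0.98, adjusted p = 0.0507). In MDA-MB-231 KD the difference of 0.35 did not pass the test (SE 0.33, adjusted p = 0.448).

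Counted over the set, 4 of the 10 receptors were called higher in MDA-MB-231 KD (MET, AXL, PDGFRB and FGFR1; 21.2% of all genes tested were called higher) and 2 lower (EGFR and EPHA2; 16.5% of all genes). In SUM159 KD 2 were called higher (AXL and FGFR1; 28.6% of all genes) and 5 lower (EGFR, MET, PDGFRA, PDGFRB and DDR2; 31.4% of all genes). In BT549 OE 2 were called higher (PDGFRA and FGFR1; 35.6% of all genes) and 6 lower (EGFR, ERBB2, AXL, IGF1R, EPHA2 and DDR2; 35.0% of all genes). With the added requirement of a log2 fold change of at least 1 in size, 1 member remained in MDA-MB-231 KD (3.20% of all genes), 5 in SUM159 KD (15.7%) and 4 in BT549 OE (31.3%). The median size of the log2 fold change over the 10 receptors was 0.35 in MDA-MB-231 KD, 0.93 in SUM159 KD and 0.88 in BT549 OE, beside 0.23, 0.46 and 0.705 over all genes tested. Without PDGFRA, which was under 3 counts per library in MDA-MB-231, the first of these was 0.36. When only library size was used for scaling, the share of calls that were higher over all genes in MDA-MB-231 KD went from 56.2% to 36.7%, while the same 4 and 2 members kept their calls and ERBB2 joined the lower ones.

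**Figure D4:**
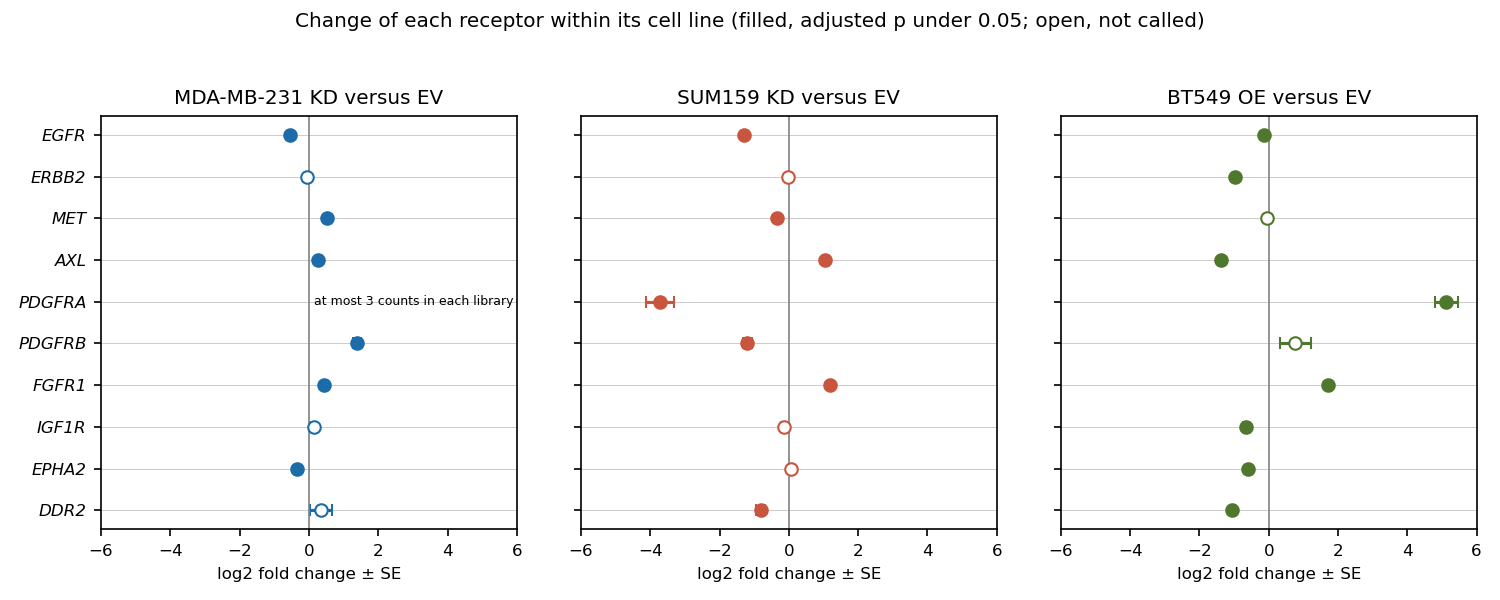
Log2 fold change with its standard error (x axis) of each receptor (y axis) in MDA-MB-231 KD, SUM159 KD and BT549 OE against the EV group of the same line. Filled points passed an adjusted p of 0.05. FGFR1 lies to the right of 0 and EGFR to the left in all 3 panels, and AXL lies right in the KD panels and left in BT549 OE.

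Whether the knockdown had a different effect in the 2 lines was tested directly in the same model, as the KD effect in MDA-MB-231 minus that in SUM159. The difference was called higher for 5 members (27.7% of all genes) and lower for 3 (23.2% of all genes), and without MDA-MB-231 KD replicate 2 it was called higher for 3. PDGFRB differed the most, by 2.58 on the log2 scale (SE 0.17, adjusted p = 1.02e-11), since it rose in MDA-MB-231 and fell in SUM159. MET, the other member with opposite calls, differed by 0.84 (SE 0.07, adjusted p = 1.70e-10). AXL and FGFR1, which rose in both lines, rose more in SUM159, by 0.79 and 0.74 on the log2 scale (adjusted p = 4.96e-15 and 5.99e-12), with the FGFR1 call lost when its main transcript was tested singly (adjusted p = 0.0793). EGFR fell further in SUM159, by 0.73 (adjusted p = 1.48e-09). IGF1R and DDR2, called by adjusted p = 0.0414 and 0.0086, were the least stable of these calls. For ERBB2 the difference was -0.03 (SE 0.06, adjusted p = 0.772), and PDGFRA, with at most 1 count per library in MDA-MB-231, could not be compared. TRMT112 itself was lower by 1.23 on the log2 scale in MDA-MB-231 KD and by 0.76 in SUM159 KD.

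The EV groups give the receptors' levels in each line under control conditions, and the 3 comparisons share these groups. In MDA-MB-231 EV against SUM159 EV, 5 members were higher (36.4% of all genes) and 4 lower (39.2% of all genes). DDR2 was 9.28-fold lower in MDA-MB-231 (log2 -3.21). Other differences were AXL, 5.63-fold higher in MDA-MB-231 (log2 2.49, SE 0.03, adjusted p = 6.39e-28), EPHA2, 3.82-fold higher (log2 1.93, SE 0.04, adjusted p = 1.04e-22), and PDGFRA, at least 20.3-fold lower against a floor of 3 counts per library. In BT549 EV against MDA-MB-231 EV, 5 members were higher (39.1% of all genes) and 5 lower (40.4% of all genes), led by DDR2, 220.7-fold higher (log2 7.79, SE 0.12, adjusted p = 4.27e-25), and PDGFRB, 30.8-fold lower (log2 -4.95, SE 0.23, adjusted p = 2.19e-15). PDGFRA was at least 2.58-fold higher in BT549. With library size alone the median gene moved by -0.32 in this comparison and 38.4% of all calls were higher in BT549, against 49.1% with TMM. In BT549 EV against SUM159 EV, 6 members were higher (37.7% of all genes) and 3 lower (40.7% of all genes), with DDR2 23.8-fold higher, FGFR1 4.74-fold higher and PDGFRB 33.1-fold lower. MET did not pass in this last comparison (log2 -0.05, SE 0.04, adjusted p = 0.287), but with library size alone, which moves the median gene by -0.21, it was -0.27 with an adjusted p of 7.74e-06.

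The ligands of these receptors were followed with a list of 31 genes, 27 of them tested. In MDA-MB-231 KD 5 ligands were called higher and 6 lower (21.2% and 16.5% of all genes), with a median log2 fold change of -0.13 (all genes, 0.00). Without the 5 ligands at or under 3 counts in every library of both groups it was -0.05. The EGFR ligand TGFA fell by 1.09 on the log2 scale (SE 0.13, adjusted p = 3.82e-07), the FGF receptor ligand FGF1 by 1.28 (SE 0.13, adjusted p = 4.58e-08) and PDGFD by 1.33 (SE 0.28, adjusted p = 4.90e-04). PDGFB and PDGFA, named after their values were seen, rose by 0.67 and 0.56 (adjusted p = 4.34e-05 and 1.73e-07). The AXL ligand GAS6, named for its rise in SUM159 KD, did not pass the test in MDA-MB-231 KD (log2 -0.04, adjusted p = 0.47), where AXL rose. In SUM159 KD 14 ligands were called higher and 7 lower (28.6% and 31.4% of all genes, list median 0.40, or 0.39 with genes at the floor set to their bound). There the EGFR ligands TGFA and AREG fell, from means of 233.2 to 5.76 and from 642.6 to 16.6 normalized counts (log2 -5.35, SE 0.26, adjusted p = 5.52e-14, and log2 -5.22, SE 0.22, adjusted p = 2.22e-15). HBEGF, an EGFR ligand too and named here after its value was seen, rose from 337.9 to 560.6 (log2 0.73, adjusted p = 1.54e-07). The AXL ligand GAS6 rose with AXL, from 3283 to 11893 normalized counts (log2 1.86, SE 0.04, adjusted p = 2.08e-21). NRG1, which binds ERBB3 and ERBB4, rose from 199.4 to 1133 normalized counts (log2 2.50, SE 0.07, adjusted p = 1.42e-18). Of the PDGF genes, PDGFB, PDGFC and PDGFD rose by 1.79, 1.34 and 2.43 on the log2 scale. PDGFA, the most abundant of them and named after its value was seen, fell from 3546 to 3130 normalized counts (log2 -0.18, adjusted p = 0.00345). Among collagens that activate DDR2, which fell in SUM159 KD, COL3A1 fell from 301.2 to 75.0 normalized counts (log2 -2.02, adjusted p = 1.20e-11). COL1A2 rose by 2.13 (adjusted p = 3.77e-07), from 11.6 to 51.6 normalized counts. COL1A1 and COL5A1, named after their values were seen, rose by 0.39 and 0.93.

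In BT549 OE 14 ligands were called higher and 10 lower (35.6% and 35.0% of all genes, list median 0.75, or 1.05 with genes at the floor set to their bound). Of the 27 tested, 19 were called with a fitted log2 value of at least 1 in size (31.3% of all genes tested). In 4 of the 27, EV or OE was at or under 3 counts per library, so their fitted values are uncertain. AREG is among these 4, with a change of at least 1.64-fold. The collagens that activate DDR2 rose while DDR2 fell: COL3A1 from 24.2 to 13025 normalized counts (log2 9.06, SE 0.10, adjusted p = 2.17e-26), COL1A1 from 2020 to 56239 (log2 4.80, SE 0.04, adjusted p = 2.42e-29), and COL1A2 from 4926 to 20151 (log2 2.03, SE 0.04, adjusted p = 1.27e-22). These collagens are also 3 of the 6 fibroblast genes above. The EGFR ligand HBEGF rose from 25.3 to 885.7 normalized counts (log2 5.12, SE 0.15, adjusted p = 3.24e-19). Other EGFR ligands, named after their values were seen, went the other way: BTC was at 136.0 normalized counts in EV and at 0 in OE (adjusted p = 2.39e-09), and AREG and EGF, with means of 5.51 and 3.84 in EV, were at 0 in OE. Of the ephrins that bind EPHA2, EFNA1 rose by 1.55, EFNA3 by 1.88 and EFNA5 by 1.26 on the log2 scale (adjusted p = 8.83e-14, 2.98e-08 and 4.77e-12), while EPHA2 fell. PDGFD fell by 5.90 (SE 0.36, adjusted p = 4.34e-13), whereas PDGFB and PDGFA rose by 2.78 and 1.68 (adjusted p = 4.56e-05 and 0.000592), both to under 50 normalized counts. The AXL ligand GAS6, named for its rise in SUM159 KD, did not pass the test (log2 -0.05, adjusted p = 0.266).

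**Figure D5:**
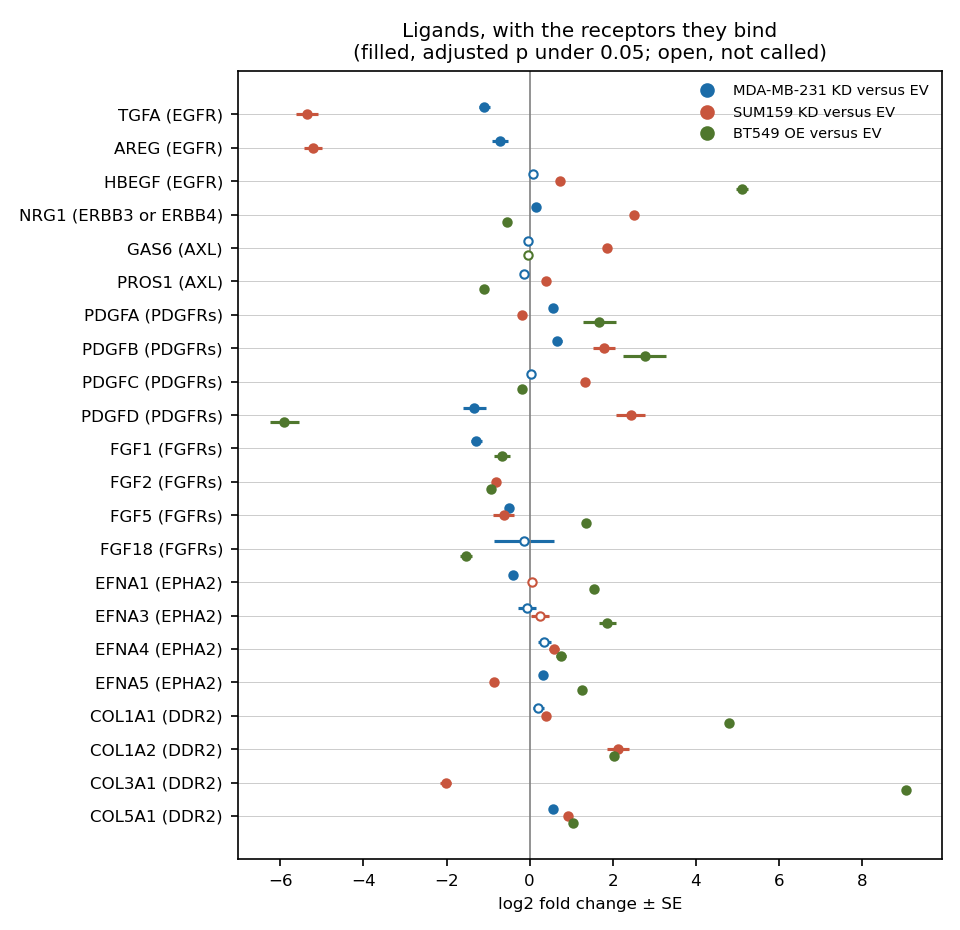
Log2 fold change with its standard error (x axis) of the ligands whose mean count reached 50 (y axis), in MDA-MB-231 KD (blue), SUM159 KD (red) and BT549 OE (green) against EV. The receptor beside each ligand is the one it was grouped with here, which need not be its only or main receptor. Filled points passed an adjusted p of 0.05, and points with a group at or under 3 counts are left out. COL3A1 in BT549 OE lies at 9.06 and TGFA in SUM159 KD at -5.35.

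Of 48 other receptor tyrosine kinases, 35 were tested, and they were counted for comparison with the 10. In MDA-MB-231 KD edgeR called 9 higher and 0 lower (21.2% and 16.5% of all genes), with 1 lower at an unadjusted p under 0.05, and DESeq2 also called 9 higher and 0 lower. With library size alone 9 were higher and 1 lower. Among the 9 were ROR1, a WNT5A receptor, which rose from 42.1 to 156.9 normalized counts (log2 1.89, SE 0.17, adjusted p = 4.89e-09), and EPHB2, an ephrin-B receptor, from 475.0 to 982.3 (log2 1.05, SE 0.09, adjusted p = 5.29e-09). In SUM159 KD 14 were called higher and 3 lower (28.6% and 31.4% of all genes). ROR1 rose there too, by 1.29 on the log2 scale (SE 0.11, adjusted p = 1.81e-10), whereas EPHB2 fell by 3.64 (SE 0.13, adjusted p = 3.36e-16). In BT549 OE 15 were called higher and 12 lower (35.6% and 35.0% of all genes). The other TAM receptors TYRO3 and MERTK rose by 1.96 and 2.07 on the log2 scale (adjusted p = 2.94e-19 and 4.12e-06) where AXL fell. Among the FGF receptors FGFR2 fell from 1768 to 299.4 normalized counts (log2 -2.56, SE 0.10, adjusted p = 2.63e-15) where FGFR1 rose, and FGFR3 and FGFR4 rose by 1.07 and 3.23 (adjusted p = 1.91e-05 and 6.11e-14). ERBB3, the HER2 partner with a weak kinase, fell from 55.0 normalized counts to at most 3 counts per library.

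Downstream of the receptors, 34 adaptors and effectors were tested. The shares of all genes called higher and lower, for these counts and those that follow, were 21.2% and 16.5% in MDA-MB-231 KD, 28.6% and 31.4% in SUM159 KD, and 35.6% and 35.0% in BT549 OE. In MDA-MB-231 KD 18 were called higher and 6 lower, or 11 and 11 with library size alone, and no call reached 1 on the log2 scale in edgeR or DESeq2. In SUM159 KD 16 were called higher and 13 lower, with IRS1, the docking protein of IGF1R, up by 1.51 (SE 0.06, adjusted p = 1.20e-16) and STAT3 down by 1.25 (SE 0.05, adjusted p = 1.55e-16). In BT549 OE 13 were called higher and 16 lower, with GAB2, STAT3 and PIK3R1 down by 3.79, 1.38 and 1.35 on the log2 scale (SE 0.28, 0.04 and 0.06). SRC, MAPK3, PLCG1, NCK2 and PIK3R2 rose there, by 1.23, 1.16, 1.12, 1.08 and 1.03, and are named after their values were seen. Of 27 genes of receptor turnover and negative regulation, 8 were called higher and 7 lower in MDA-MB-231 KD (5 and 10 with library size alone), 5 and 15 in SUM159 KD, and 10 and 14 in BT549 OE. LRIG1, which promotes the degradation of ERBB receptors and MET, fell from 2447 to 99.6 normalized counts in BT549 OE (log2 -4.62, SE 0.08, adjusted p = 9.03e-24), and GRB10, an inhibitor of the insulin and IGF receptors, fell by 1.47 in SUM159 KD (SE 0.04, adjusted p = 5.15e-19).

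A list of 15 genes that respond to ERK, the kinase at the end of the RAS route, was counted as well, against 21.2% and 16.5% of all genes called higher and lower in MDA-MB-231 KD, 28.6% and 31.4% in SUM159 KD, and 35.6% and 35.0% in BT549 OE. It had 4 called higher and 8 lower in MDA-MB-231 KD (median -0.17), 3 and 10 in SUM159 KD (median -0.56), and 5 and 8 in BT549 OE (median -0.77), beside medians of 0.00, 0.00 and 0.02 over all genes. SPRY2, SPRY4 and SPRED1 are also among the genes of receptor turnover and negative regulation counted above. EGR1, an immediate early transcription factor, fell from 1110 to 197.3 normalized counts in MDA-MB-231 KD (log2 -2.49, SE 0.09, adjusted p = 1.48e-15). The ERK phosphatase gene DUSP6 fell by 1.79 in SUM159 KD (SE 0.18, adjusted p = 8.17e-09), and DUSP4, PHLDA1 and CCND1 fell by 2.73, 2.49 and 2.46 in BT549 OE (adjusted p = 9.45e-23, 4.65e-26 and 2.89e-21). EGR1, SPRED1 and FOS of the same list rose there, by 1.79, 1.38 and 1.26 (adjusted p = 7.31e-14, 7.28e-14 and 0.000192), and are named after their values were seen. ERK activity was not measured. Around IGF1R, the list of IGF-binding proteins and IGF2R had 5 called higher and 2 lower of 8 in MDA-MB-231 KD, 4 and 3 in SUM159 KD and 4 and 3 in BT549 OE. IGFBP2 fell from 2239 to 41.7 normalized counts in SUM159 KD (log2 -5.75, SE 0.13, adjusted p = 3.75e-19) where IGF1R did not pass the test.

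Of 4 endothelial genes 2 had a row, and their summed level was 25.6 to 28.2 normalized counts in MDA-MB-231 EV and 93.45 to 110.5 in KD (mostly CDH5), and 24.2 to 25.1 in SUM159 EV and 88.7 to 102.9 in KD (PECAM1 alone, with CDH5 at 0 in EV). Their part in the receptor changes was not tested.

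The gene whose pattern over the 6 groups was most like that of a receptor was found by Pearson's r on the group means of log2 CPM, over 12590 genes whose mean count reached 50. Each r rests on 6 points that share cell lines, so these are descriptions only. For AXL they were CDK15 (r = 0.993) and FBXL5 (r = 0.993), for FGFR1 FSTL1 (r = 0.993) and BPNT2 (r = 0.993), for EGFR SF3A2 (r = 0.981) and CDK5RAP1 (r = 0.979), and for DDR2 ACP2 (r = 0.998) and FMR1 (r = 0.997). For ERBB2 they were DBF4 (r = 0.994) and SLC6A15 (r = 0.993), for MET REXO5 (r = 0.988) and VAPA (r = 0.976), for PDGFRA SNUPN (r = 0.993) and XYLT1 (r = 0.990), and for PDGFRB ACSS2 (r = 0.994) and DENND4A (r = 0.994). IGF1R was most like GPR137B (r = 0.997) and CDK9 (r = 0.995), and EPHA2 like TSPYL2 (r = 0.996) and TMEM41B (r = 0.995). Among the receptors themselves, IGF1R and EPHA2 had the highest r over the 6 groups (0.925), followed by AXL with IGF1R (0.922) and with EPHA2 (0.848), while PDGFRB and DDR2 had the lowest (-0.939).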

How the data were processed

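Polysome-associated RNA of 12 libraries was sequenced; the labels name poly(A) selection and the study's methods rRNA depletion. Per the methods, the authors used Trimmomatic for trimming, HISAT2 for alignment (GRCh38) and SAMtools to drop duplicates. Values in the deposited table are expected counts of Ensembl transcripts, not normalized; the counting tool, its annotation and strand setting are not given in the sources used here. Groups came from the labels.

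Transcripts were matched to GENCODE 44 symbols (79.6% of 201932 rows, with 99.2% to 99.4% of counts), summed per symbol and rounded. Entries given as a question mark in BT549 columns were read as 0. The edgeR 4.0.16 quasi-likelihood test (R 4.3.3, filterByExpr, TMM, 6 group means over 12 libraries, 6 residual degrees of freedom, Benjamini-Hochberg) was used for the within-line, line and difference comparisons, after tests on simulated data. There 6.19%, 4.97% and 9.14% of calls at an adjusted p under 0.05 were false for MDA-MB-231 KD, SUM159 KD and BT549 OE. The simulated data had 100 genes changed by 0.5 and 100 by 1 on the log2 scale, fewer than were called here. Levels per kilobase divide each transcript's normalized counts by its own length. Depth was 22954226 to 27434677 counts per library, and replicates differed by more than sampling noise. Named list genes had an adjusted p under 0.05, a log2 fold change of at least 1 in size, a mean of at least 50 counts and no overlap between groups, at most 3 per list and comparison except for ligands and receptors. Genes said to be named after their values were seen stand outside this rule. Alternatives were RLE size factors, library size alone, DESeq2 1.42.0, other filters, a replicate block, each line fitted alone, main transcripts tested singly, removal of marked transcripts and of each library. The receptors and gene lists were chosen with earlier results of these data known.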

Additional observations from a re-analysis of the deposited data

Results flagged for a closer look

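For 8 receptors the knockdown effect differed between MDA-MB-231 and SUM159 by the test of the difference itself (effect in MDA-MB-231 minus effect in SUM159, on the log2 scale, with 2 libraries in each of 4 groups). Of these 8, 5 were called higher and 3 lower, beside 27.7% and 23.2% of all genes tested. The difference was 2.58 for PDGFRB, which rose in all MDA-MB-231 KD libraries and fell in all SUM159 KD libraries, and 0.84 for MET, which had the same opposite directions. It was 0.73 for EGFR, which fell in both lines, and -0.79 for AXL and -0.74 for FGFR1, which rose in both. EPHA2, which was called in MDA-MB-231 KD alone, differed by -0.42. DDR2 differed by 1.17, but without MDA-MB-231 EV replicate 1 or MDA-MB-231 KD replicate 2 that call was lost, and its counts in MDA-MB-231 were at most 25.05 normalized counts per library. IGF1R differed by 0.28 with no call in either line, and its call was lost in 11 of 20 alternatives, whose values ran from 0.18 to 0.37. The lines also differ in medium and in how far TRMT112 fell, and these cannot be told apart from the line.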

How the results depend on the processing

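No value of the 10 receptors reversed a call under the alternatives run. Of the single-receptor values outside the removal of libraries, 561 kept their side of the threshold, 5 passed it newly and 16 lost it. With main transcripts tested singly, 3 receptors instead of 5 were called lower in SUM159 KD (MET and DDR2 lost) and 3 instead of 5 had a higher difference of KD effects. With a mean of at least 50 counts, 1 instead of 2 was called higher in BT549 OE, since PDGFRA falls under that limit. Leaving out each library gave 3 to 5 receptors with a higher difference of KD effects. With the length of the longest transcript, AXL held 48.66% of the summed level in SUM159 EV, 65.13% in SUM159 KD and 46.82% in BT549 EV, and FGFR1 56.81% in BT549 OE. Replicate numbers did not pair the libraries (correlations of 0.02, -0.025 and 0.004), and the fit with the replicate block called 6164 genes in MDA-MB-231 KD (6240 without), 9815 in SUM159 KD (9933) and 11569 in BT549 OE (11677), with no receptor's call changed. Depth limits PDGFRA in MDA-MB-231 and PDGFRB in BT549.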
